A study of Mus musculus with 3 samples.

Results

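The 10 genes described here encode receptors that turn T cell activation up or down, the high-affinity chain of the interleukin-2 receptor, and the transcription factor of regulatory T cells: Cd28, Icos, Ctla4, Pdcd1, Tigit, Tnfrsf4, Tnfrsf9, Tnfrsf18, Il2ra and Foxp3. They were taken by gene symbol from the 31253 genes of 3 single-cell count matrices, and all 10 were present. The cells came from the jaws of wild-type C57BL/6 male mice, 10 weeks old. Of 24 mice, 8 were left untreated (Ctrl), 8 were studied 1 day (1d) and 8 studied 7 days (7d) after a single 10 Gy dose of radiation to the head and neck. The 8 mice of each group were pooled into 1 library, so the spread between mice cannot be measured and no comparison below carries a test. Fat, fibrous and necrotic parts were removed before the tissue was digested with collagenase II, and the cells were frozen and thawed before capture, in all 3 groups alike.

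A T cell that binds antigen needs a second signal, which CD28 delivers on binding CD80 or CD86. CTLA-4 competes for these same ligands and restrains the response, ICOS is a close relative of CD28 that sustains it, and PD-1 (Pdcd1) and TIGIT are inhibitory receptors. OX40 (Tnfrsf4), 4-1BB (Tnfrsf9) and GITR (Tnfrsf18) belong to the tumour necrosis factor receptor superfamily, appear or increase on activated cells, and signal through TRAF adaptors to NF-kB. Regulatory T cells carry FOXP3 together with high CTLA-4, GITR and the interleukin-2 receptor alpha chain (Il2ra), and NK cells can also display 4-1BB, GITR and TIGIT.

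The genes lie partly side by side in the mouse genome (build GRCm38, which is mm10; GENCODE vM21). Cd28 (chr1:60716800-60773359, plus strand), Ctla4 (chr1:60887000-60915832, plus) and Icos (chr1:60977927-61000320, plus) follow one another with 114 kb and 62.1 kb between them and 0 other protein-coding genes in the gaps. Tnfrsf4 (chr4:156013843-156016612, plus) and Tnfrsf18 (chr4:156026164-156028895, plus) are 9.55 kb apart with 0 protein-coding genes between them. Tnfrsf9 (chr4:150914562-150946102, plus) lies on the same chromosome, with 83 protein-coding genes between it and Tnfrsf4. Pdcd1 (chr1:94038305-94052553, minus), Tigit (chr16:43648867-43664146, minus), Il2ra (chr2:11642807-11693193, plus) and Foxp3 (chrX:7573644-7595245, plus) stand apart from the others. Tnfrsf9 overlaps Camta1 on the opposite strand over 28781 bases, Tnfrsf18 lies inside the antisense gene Gm16008, and Foxp3 overlaps Flicr, Ppp1r3f and Ccdc22. Whether the counting used strand is not given in the sources used here, so reads of these partners may not be separable.

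Promoter windows of 300 bases (250 before and 50 after each annotated start, from RefSeq, GRCm38.p6) were found for 8 of the 10 genes. Those of Tnfrsf9, Tnfrsf18 and Tnfrsf4 are shown because these 3 receptors belong to one superfamily and Tnfrsf4, a neighbour of Tnfrsf18, departed from the others. As described below, Tnfrsf9 and Tnfrsf18 were called lower than in Ctrl in the same classes at the later time, and Tnfrsf4 did not share this pattern. Capitals mark matches, on either strand, to an NF-kB motif (GGG, any 3 bases, then TTCC), an AP-1 motif (TGANTCA) or the NFAT core (TGGAAA).
Tnfrsf9 start 1 (chr4:150919905-150920204, plus strand): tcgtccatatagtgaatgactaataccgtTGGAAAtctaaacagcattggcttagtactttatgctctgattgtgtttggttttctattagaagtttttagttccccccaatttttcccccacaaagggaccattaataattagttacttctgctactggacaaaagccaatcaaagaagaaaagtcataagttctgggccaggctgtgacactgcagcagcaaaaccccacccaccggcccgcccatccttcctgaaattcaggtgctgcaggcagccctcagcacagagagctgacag
Tnfrsf9 start 2 (chr4:150927749-150928048, plus strand): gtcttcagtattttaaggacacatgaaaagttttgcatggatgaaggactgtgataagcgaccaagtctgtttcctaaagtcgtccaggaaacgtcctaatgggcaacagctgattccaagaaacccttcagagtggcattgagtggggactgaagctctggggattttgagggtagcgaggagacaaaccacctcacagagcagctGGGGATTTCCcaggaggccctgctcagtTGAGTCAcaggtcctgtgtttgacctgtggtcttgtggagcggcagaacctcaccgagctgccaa
Tnfrsf18 (chr4:156026072-156026371, plus strand): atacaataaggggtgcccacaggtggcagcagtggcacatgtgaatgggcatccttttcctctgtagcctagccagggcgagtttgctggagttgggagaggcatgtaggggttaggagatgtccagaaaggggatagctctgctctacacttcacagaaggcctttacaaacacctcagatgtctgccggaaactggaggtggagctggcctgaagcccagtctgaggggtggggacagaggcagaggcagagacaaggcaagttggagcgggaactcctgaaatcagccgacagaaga
Tnfrsf4 (chr4:156013445-156013744, plus strand): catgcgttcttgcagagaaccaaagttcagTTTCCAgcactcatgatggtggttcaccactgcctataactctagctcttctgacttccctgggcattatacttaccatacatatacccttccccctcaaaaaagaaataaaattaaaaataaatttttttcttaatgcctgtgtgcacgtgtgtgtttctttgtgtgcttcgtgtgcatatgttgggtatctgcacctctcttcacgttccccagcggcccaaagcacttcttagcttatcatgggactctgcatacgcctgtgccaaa
Start 1 of Tnfrsf9 held an NFAT core at positions 30 to 35 of the window, and start 2 held an NF-kB motif at positions 208 to 217 and an AP-1 motif at positions 236 to 242. The Tnfrsf4 window held an NFAT core on the minus strand at positions 31 to 36, and the Tnfrsf18 window held none of the 3 motifs. Among 32851 mouse promoter windows of the same length, 5.56% held the NF-kB motif, 7.81% the AP-1 motif and 21.4% the NFAT core. A match describes letters in the window and is no measured binding site.

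After filtering, 8623 Ctrl, 4879 1d and 6094 7d cells remained, with a median of 2419, 5022 and 3816.5 unique molecular identifiers (UMIs, each standing for 1 captured transcript) per cell. T and NK cells numbered 1858, 216 and 2959, at medians of 3047, 3914.5 and 3024 UMIs. The libraries held 41048084, 46119700 and 49998293 UMIs in all. Between 9 and 14 cell barcodes were shared by each pair of libraries. Sub-clustering without the 10 genes gave 7 classes that are described here, and 13, 8 and 18 cycling cells and 81, 0 and 16 cells with mixed lineage markers were left out. The CD4 and regulatory T-like class (199, 30 and 177 cells in Ctrl, 1d and 7d) was led by Foxp3, Lrrc32, Tnfrsf4, Ctla4 and Cd4, so Foxp3, Tnfrsf4 and Ctla4 mark this class and also belong to the 10 genes described. The others were Gzmk-expressing CD8 T-like cells (113, 11 and 153), naive T-like cells (389, 29 and 455), T cells with no further name (505, 72 and 1021, called other T cells below), NK-like cells (507, 42 and 1015), type 2 innate lymphoid-like cells (ILC2-like; 30, 21 and 84) and gamma delta T-like cells (21, 3 and 20). A Cd3e UMI was found in 56.2%, 53.8% and 52.5% of T cells and in 1.78%, 0% and 0.296% of NK-like cells.

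Several classes drew on different clusters in different libraries. Naive T-like cells were mostly cluster 1 in Ctrl (372 of 389) and cluster 9 at 7d (448 of 455). NK-like cells were mostly cluster 0 in Ctrl (412 of 507) and cluster 7 at 7d (929 of 1015). Other T cells were mostly clusters 6 and 3 in Ctrl (293 and 183) and cluster 15 at 7d (766). The CD4 and regulatory T-like, CD8 T-like and ILC2-like classes were 1 cluster each at this resolution, but a finer clustering (Leiden resolution 2) divided the first and the last. It split the CD4 and regulatory T-like class into a Cd4-rich subcluster (88 cells in Ctrl and 148 at 7d, with a Cd4 UMI in 46.6% and 47.3%) and an Lrrc32-rich subcluster (127 and 41 cells, with an Lrrc32 UMI in 43.3% and 36.6%). The balance of the subclusters thus differed between Ctrl and 7d. Of the ILC2-like class, only 11 of 30 cells in Ctrl, 17 of 21 at 1d and 25 of 84 at 7d stayed in a cluster named ILC2-like, so its levels are those of a mixed innate class. The neutrophil transcript S100a8 was found in 45.2%, 74.5% and 27.8% of T cells in Ctrl, 1d and 7d, at 196, 378 and 99.6 UMIs per 1000000, and in 41.2%, 71.4% and 30.1% of NK-like cells. Free RNA of this kind thus differed between the libraries. Its part in the differences below was not tested, beyond subtracting the same assumed 5% in each library. With that subtraction 24 gene and class pairs of the 10 genes were lower at 7d, the same count as without it. The 10 genes were scarce in cells that should lack them, since 96.3%, 97.5% and 94.7% of neutrophils held no UMI of any of the 10.

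Levels are given as CPM, the UMIs of a gene per 1000000 UMIs of its class in that library, with 95% Poisson intervals. A ratio to Ctrl has a 95% binomial interval, and both cover counting error only. A gene was called higher or lower where its ratio was at least 2 or at most 0.5, the interval left out 1, and the 2 libraries together held at least 20 UMIs of it. Ratios were formed where both libraries of a comparison had 30 or more cells of the class, and the single Ctrl library serves both comparisons.

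At 1d almost no gene passed this rule, and at 7d 8 of the 10 genes were lower in at least 1 class, the exceptions being Cd28 and Foxp3. Of 21 gene and class pairs with enough UMIs at 1d, 0 were higher and 1 was lower (Tnfrsf9 in other T cells, where 2.67% of all genes were lower), against 1.82% higher and 2.35% lower among all gene and class pairs tested. The 1d classes held 30 to 72 cells, and the median log2 ratio of the genes was 0.06 in the CD4 and regulatory T-like class, 0.16 in other T cells and 0.49 in NK-like cells (0.01, -0.05 and -0.02 over all genes). At 7d, 24 of 42 pairs were lower (57.1%) and 0 were higher, whereas 6.35% of all pairs were lower and 4.22% were higher. The lower pairs were 4 of 9 in the CD4 and regulatory T-like class (5.5% of all genes), 5 of 7 in CD8 T-like cells (4.96%), 4 of 6 in naive T-like cells (8.95%), 4 of 8 in other T cells (5.56%), 4 of 7 in NK-like cells (6.44%) and 3 of 5 in ILC2-like cells (5.95%). The median log2 ratio of the genes at 7d lay between -0.88 in the CD4 and regulatory T-like class and -1.55 in CD8 T-like cells, where the median over all genes was -0.05 in both. With all T cells summed, of which the CD4 and regulatory T-like class was 199 of 1227 in Ctrl and 177 of 1826 at 7d, 8 of the 10 genes were lower at 7d (6.33% of all genes), and the 2 that were not were Cd28 (426 CPM in Ctrl and 401 at 7d) and Tigit (2.42 and 2.5).

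**Figure D1:**
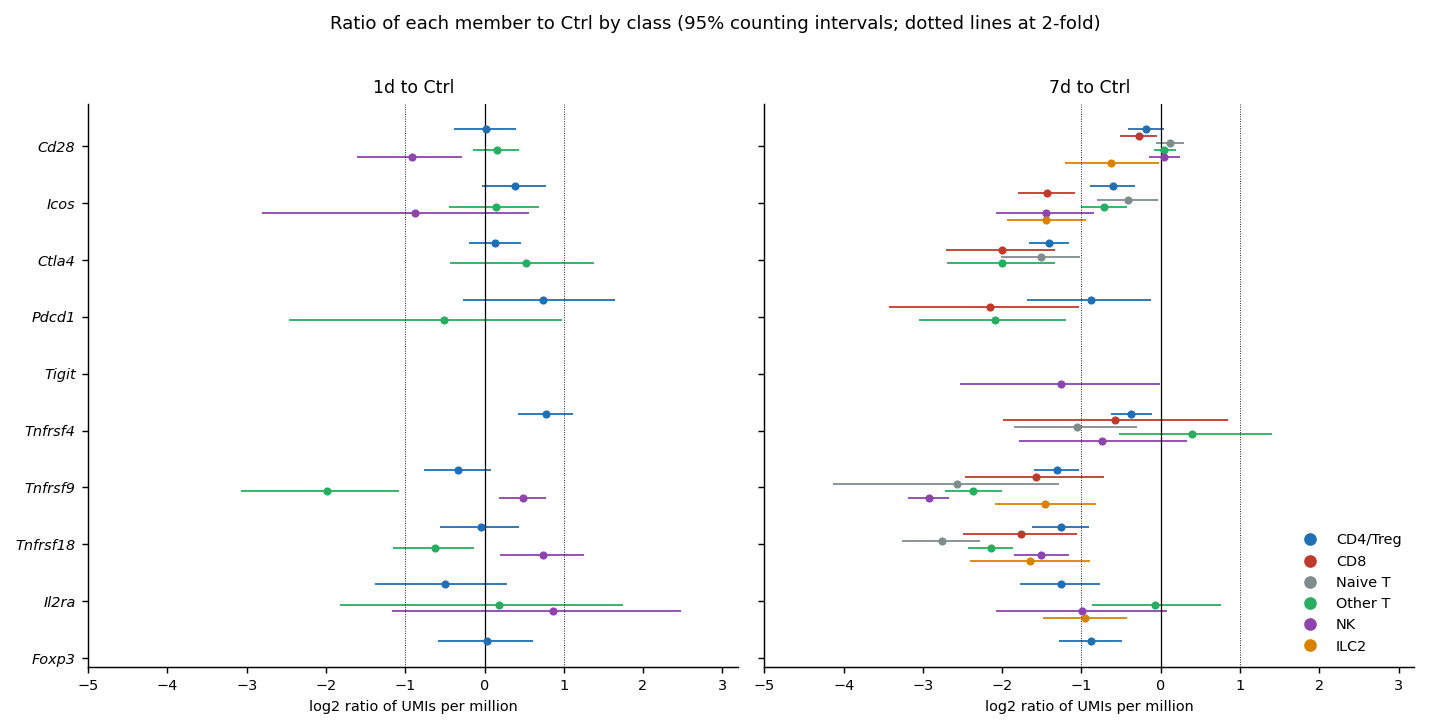
Ratio to Ctrl of each of the 10 genes (log2 scale, with 95% counting intervals) by class, at 1d and at 7d; dotted lines mark a 2-fold difference and the centre line equal levels. At 7d most points lie left of the centre line, with Cd28 near it in the T and NK classes, while at 1d only Tnfrsf9 in other T cells lies past the 2-fold line with its interval clear of 1.

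Cd28, the costimulatory receptor of resting T cells, was not called different in any of the classes compared. In Ctrl it stood at 779 CPM (690 to 877) in CD8 T-like cells and 708 (638 to 783) in the CD4 and regulatory T-like class, whose intervals overlap. It was lower in ILC2-like cells (408), naive T-like cells (375) and other T cells (331), which overlap in that order (the 11 Ctrl cells of the finer ILC2-like cluster held only 4 Cd28 UMIs, or 148 CPM), and lowest of the larger classes in NK-like cells (218, 195 to 244). This order of CD8 T-like and CD4 T-like cells above naive and other T cells, with NK-like cells last, was also present at 7d, at 642, 623, 405, 342 and 225 CPM. The ratios of 7d to Ctrl were 0.824 (0.701 to 0.969) in CD8 T-like cells, 0.88 (0.753 to 1.03) in the CD4 T-like class, 1.08 in naive T-like cells, 1.03 in other T cells and 1.03 (0.9 to 1.18) in NK-like cells. Only ILC2-like cells departed further, at 264 CPM and a ratio of 0.647 (0.434 to 0.984). In the finer clustering the Cd4-rich subcluster stood at 765 and 724 CPM (ratio 0.946), whereas the Lrrc32-rich subcluster went from 694 to 263 CPM on 231 and 23 UMIs, a ratio of 0.38 (0.236 to 0.584) that would be called lower. At 1d the gene stood at 716 CPM in the CD4 T-like class and 368 in other T cells, and at 116 in NK-like cells, where the ratio was 0.531 (0.328 to 0.818) on 22 UMIs. A Cd28 UMI was present in 35.5%, 38.1% and 35.5% of NK-like cells, against 1.34%, 0.643% and 1.68% of neutrophils, whose median depths were 2735, 3820 and 2528 UMIs and 1973.5, 4898 and 3803 UMIs. The share in NK-like cells was thus far above that in neutrophils in all 3 libraries.

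**Figure D2:**
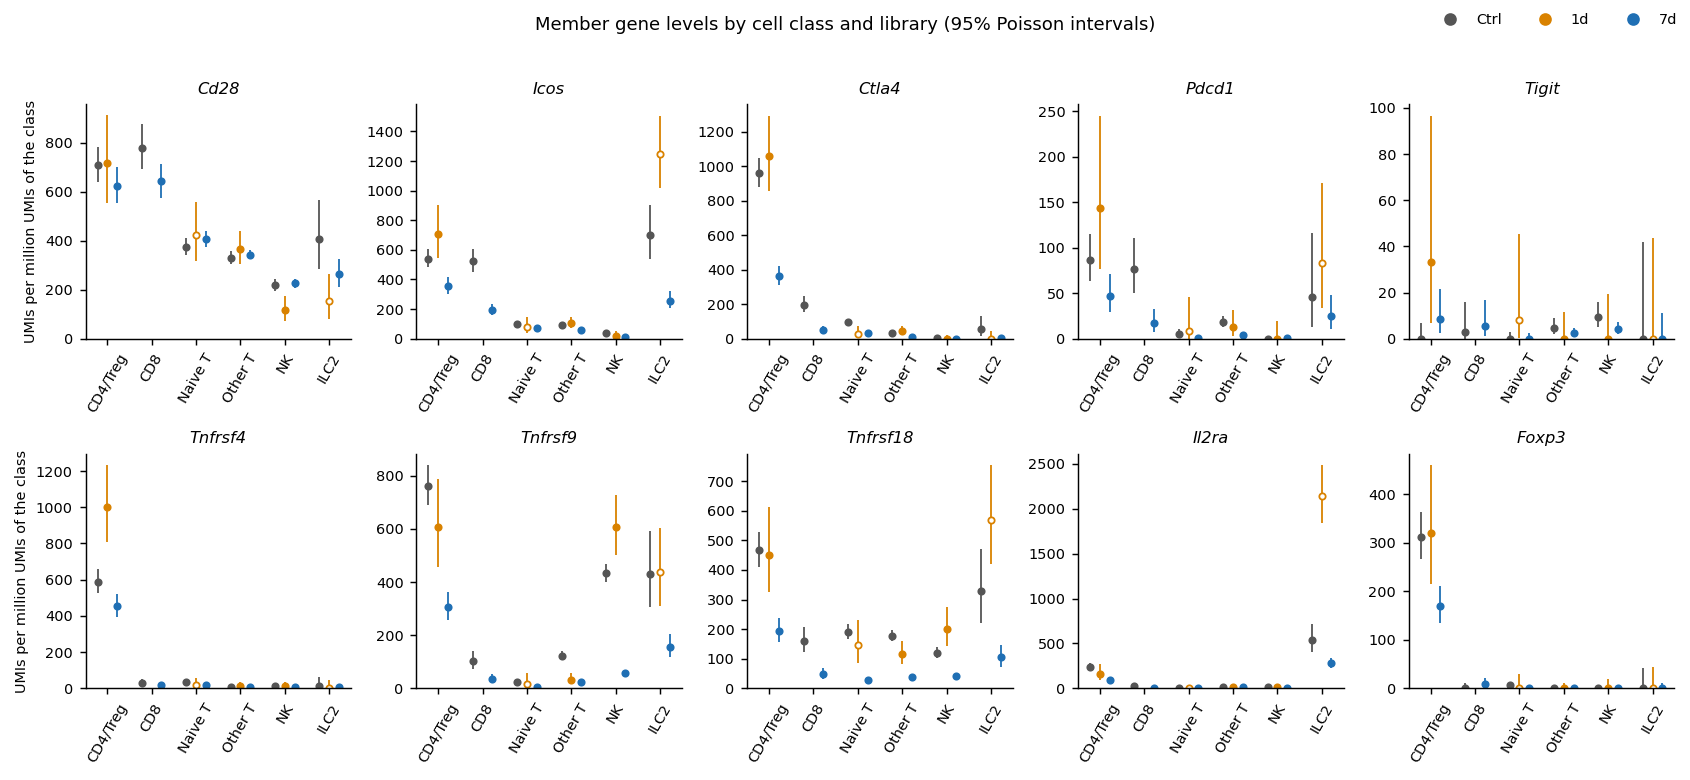
Level of each of the 10 genes (CPM, linear axis, with 95% Poisson intervals) by class in Ctrl, 1d and 7d. Hollow points are classes with fewer than 30 cells in that library. The 7d points of Ctla4, Tnfrsf9 and Tnfrsf18 lie below the Ctrl points in the T cell classes, whereas those of Cd28 lie close together.

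Icos, the receptor for ICOS ligand on activated and memory T cells, was highest in Ctrl in the gamma delta T-like cells. The few cells of that class stood at 2077.5 CPM (1787.4 to 2401.3), followed by ILC2-like cells at 702 (539 to 901; 1889 in the 11 cells of the finer ILC2-like cluster), the CD4 and regulatory T-like class at 542 (481 to 608) and CD8 T-like cells at 525 (452 to 606). The last 3 overlap one another, and naive T-like cells (97.5), other T cells (93.3) and NK-like cells (38.8) were well below them. At 7d the levels were 258 in ILC2-like cells, 356 in the CD4 T-like class, 194 in CD8 T-like cells, 73 in naive T-like cells, 56.7 in other T cells and 14.2 in NK-like cells. The gene was called lower in CD8 T-like cells (ratio 0.369, 0.287 to 0.472, but 0.502 over all Cd8-gated cells), ILC2-like cells (0.367, 0.261 to 0.518) and NK-like cells (0.365, 0.237 to 0.559). Its ratios of 0.657 (0.54 to 0.797) in the CD4 T-like class, 0.608 (0.497 to 0.746) in other T cells and 0.749 (0.573 to 0.978) in naive T-like cells stayed inside 2-fold. The first of these was past 2-fold in both subclusters of the finer clustering, at 0.479 in the Cd4-rich and 0.433 in the Lrrc32-rich one. The value in other T cells was 0.456 after thinning, and 0.396 over the T cells outside the Cd4 and Cd8 gates. Those gated cells are another population, which held 119 Foxp3 UMIs in Ctrl where the class of other T cells held 1. CD8 T-like cells with an Icos UMI made up 60.2% in Ctrl and 37.3% at 7d, against 0.234% and 0.279% of neutrophils. The 1d levels in the CD4 T-like class (705) and other T cells (103) were 1.30 (0.978 to 1.71) and 1.10 times Ctrl. The 20 gamma delta T-like cells at 7d stood at 539 CPM (383 to 736), an interval clear of that of Ctrl.

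Ctla4, the inhibitory counterpart of Cd28, was concentrated in the CD4 and regulatory T-like class, at 962 CPM (880 to 1048.5) in Ctrl, 1058 (857 to 1292.2) at 1d and 362 (310 to 421) at 7d. The Ctrl and 1d intervals overlap, and the 7d interval lies below both. In Ctrl it followed in gamma delta T-like cells (341), CD8 T-like cells (198), naive T-like cells (95.1), ILC2-like cells (56.7, on 5 UMIs) and other T cells (30.4). It was called lower at 7d in the CD4 T-like class (ratio 0.377, 0.315 to 0.449), CD8 T-like cells (0.25, 0.153 to 0.397), naive T-like cells (0.352, 0.248 to 0.494) and other T cells (0.249, 0.154 to 0.396). After thinning, the naive T-like ratio was 0.564 and not called. These were all 4 of the classes in which enough Ctla4 UMIs were counted. Within cluster 3 of other T cells, present in both libraries, the ratio was 0.475 (0.162 to 1.16) on 31 and 6 UMIs and was not called. No naive T-like cluster held 30 cells of both libraries. Of the CD4 T-like class, 72.9% of cells held a Ctla4 UMI in Ctrl, 80% at 1d and 48% at 7d. With every cell thinned to 1000 UMIs the shares were 53%, 48.3% and 29.3%, and in neutrophils they were at most 0.838%. NK-like cells held 7, 0 and 0 Ctla4 UMIs.

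Pdcd1, which encodes the checkpoint receptor PD-1, was a low-count gene here. In Ctrl it was found at 307 CPM in gamma delta T-like cells (27 UMIs), 85.9 (62.9 to 115) in the CD4 T-like class, 76.2 (50.2 to 111) in CD8 T-like cells and 17.8 in other T cells. The CD4 and CD8 intervals overlap, and NK-like cells held 0, 0 and 1 UMIs in Ctrl, 1d and 7d. By 7d it was called lower in CD8 T-like cells (17.1 CPM, ratio 0.224, 0.0928 to 0.491) and other T cells (4.18 CPM, ratio 0.235, 0.121 to 0.437), while the CD4 T-like class stood at 46.6 CPM with a ratio of 0.542 (0.311 to 0.92). Of the 34 Ctrl UMIs of other T cells, 32 were in cluster 6, which had 5 cells at 7d. Cluster 3, present in both libraries, held 1 UMI in Ctrl and 0 at 7d. Library and cluster thus cannot be told apart for Pdcd1 in other T cells. One cell held 22.7% of the Pdcd1 UMIs of the CD4 T-like class at 7d, and without the top cell of each library the ratio was 0.448. At 1d the CD4 T-like class stood at 143 CPM (76.3 to 245), which overlaps Ctrl.

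Tigit, an inhibitory receptor for CD155 found on NK cells and regulatory T cells, was close to the counting floor. NK-like cells held 14, 0 and 11 UMIs, or 9.53 CPM in Ctrl and 4.00 at 7d, and the ratio of 0.42 (0.172 to 0.995) only just left out 1. It was no longer called after TMM scaling (0.457) or without the top cell (0.411). The CD4 and regulatory T-like class held 0, 3 and 4 UMIs. For the 199 Ctrl cells, 0 cells with a UMI allows a share of up to 1.51% of cells with a UMI (3 counts of the total), which sets no limit on the cells that express the gene.

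Tnfrsf9 (4-1BB), a costimulatory receptor of activated T and NK cells, had the smallest of the 42 ratios at 7d, in NK-like cells, and its values depended on the cluster. Ctrl levels were 908 CPM (720 to 1130.3) in gamma delta T-like cells and 762 (690 to 840) in the CD4 and regulatory T-like class, which overlap. NK-like cells (434, 401 to 469) and ILC2-like cells (431, 305 to 591) formed a second level, other T cells (124) and CD8 T-like cells (102) a lower one, and naive T-like cells (24) were lowest. The 7d levels were 307 in the CD4 T-like class, 57.1 in NK-like cells, 157 in ILC2-like cells, 24.1 in other T cells, 34.2 in CD8 T-like cells and 4.02 in naive T-like cells. All 6 were called lower, with ratios of 0.403 (0.331 to 0.488; 0.602 with per-cell gates) in the CD4 T-like class, 0.132 (0.11 to 0.157) in NK-like cells, 0.364 (0.234 to 0.569) in ILC2-like cells, 0.194 (0.151 to 0.248) in other T cells, 0.336 (0.18 to 0.608) in CD8 T-like cells and 0.168 (0.0571 to 0.41) in naive T-like cells. NK-like cells, level with ILC2-like cells in Ctrl, were below them at 7d and overlapped CD8 T-like cells (20.3 to 54). At 1d the NK-like level was 606 CPM (501 to 728), 1.40 times Ctrl (1.14 to 1.71), and that of the CD4 T-like class was also 606 (457 to 789), 0.796 times Ctrl. Other T cells were at 31.2 CPM at 1d, a ratio of 0.252 (0.119 to 0.472) on 10 UMIs, which was the 1 difference called at that time. It was not called with per-cell gates in place of clusters (ratio 1.02), with a stricter cell filter (0.649), at a finer clustering (0.702) or after thinning (0.686).

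The share of NK-like cells with a Tnfrsf9 UMI was 49.1% in Ctrl, 64.3% at 1d and 11% at 7d, and 28.1%, 29.3% and 4.78% after thinning to 1000 UMIs. Neutrophils were at 0.601%, 0.0803% and 0%. Within clusters the picture was different. Cluster 0, which held most Ctrl NK-like cells, stood at 511 CPM with 57.8% of its cells positive, and cluster 7, which held most at 7d, at 56.4 CPM with 11.1% positive. Cluster 10, the 1 NK-like cluster with at least 30 cells in both (74 and 75), expressed Hspa1a, Hspa1b, Ccl3 and Ccl4 and stood at 44.5 CPM in Ctrl and 50.6 at 7d, a ratio of 1.14 on 9 and 10 UMIs. Among other T cells, cluster 6 in Ctrl was at 196 CPM and cluster 15 at 7d at 26.7, whereas cluster 3, present in both, held 2 and 6 UMIs, a ratio of 7.36. The lower Tnfrsf9 of the NK-like and other T classes thus came with different clusters filling them, and was not seen inside the clusters that both libraries share, where few UMIs were counted. In the CD4 T-like class the ratio at 7d was 0.264 within the Cd4-rich and 0.467 within the Lrrc32-rich subcluster, and in the finer CD8 T-like cluster it was 0.39, all of which are past 2-fold. The finer ILC2-like cluster has fewer than 30 cells per library, so no ratio was formed there. Its Tnfrsf9 level was 296 CPM in Ctrl (8 UMIs, 11 cells) and 245 at 7d (30 UMIs, 25 cells). The difference of the whole ILC2-like class was thus not seen there, on few UMIs. Camta1, which overlaps the gene, was past the 2-fold rule in no class.

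**Figure D3:**
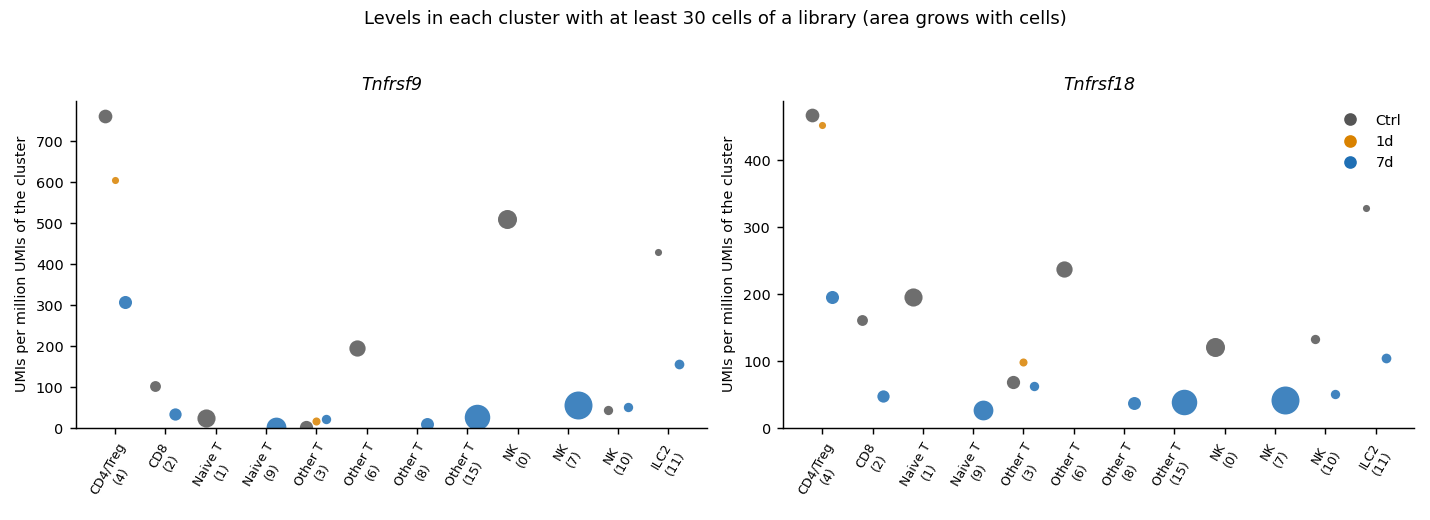
Levels of Tnfrsf9 and Tnfrsf18 (CPM) in each T and NK cluster and library with at least 30 cells, with point area growing with the number of cells. Tnfrsf9 is high in the Ctrl NK-like cluster 0 (511 CPM) and low in the 7d cluster 7 (56.4), and in cluster 10 the Ctrl and 7d points lie close together (44.5 and 50.6).

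Tnfrsf18 (GITR), carried by regulatory T cells and raised on activation, was called lower in the same 6 classes at 7d, including inside a shared NK-like cluster. Ctrl levels were 467 CPM (411 to 528) in the CD4 and regulatory T-like class and 329 (220 to 472) in ILC2-like cells, which overlap (704 in the 11 cells of the finer ILC2-like cluster). Naive T-like cells (190, 167 to 216), other T cells (177) and CD8 T-like cells (161) overlap one another, and NK-like cells followed at 120 (103 to 139). At 7d these classes stood at 195, 104, 28.1, 40, 47.5 and 42.2 CPM in that order. Naive T-like cells had the smallest ratio (0.148, 0.104 to 0.206), then other T cells (0.226, 0.185 to 0.274), CD8 T-like cells (0.295, 0.177 to 0.48), ILC2-like cells (0.318, 0.188 to 0.541), NK-like cells (0.352, 0.276 to 0.447) and the CD4 T-like class (0.417, 0.325 to 0.532). In NK-like cluster 10 the level was 134 CPM in Ctrl and 50.6 at 7d, a ratio of 0.379 on 27 and 10 UMIs, so the difference was present there too. In cluster 3 of other T cells the ratio was 0.913 on 43 and 16 UMIs. Naive T-like cells with a Tnfrsf18 UMI made up 41.1%, 41.4% and 7.69% in Ctrl, 1d and 7d, against 1.37%, 1.12% and 2.51% of neutrophils. No naive T-like cluster held 30 cells of both libraries, so library and cluster cannot be told apart in that class. At 1d the NK-like level was 200.4 CPM, 1.67 times Ctrl (1.15 to 2.39), and that of other T cells was 115, 0.651 times Ctrl (0.45 to 0.915).

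Tnfrsf4 (OX40), which supports survival of activated CD4 T cells, did not share the pattern of its neighbour Tnfrsf18. It was nearly restricted to the CD4 and regulatory T-like class, at 588 CPM (525 to 657) in Ctrl, 1003 (808 to 1231.6) in the 30 cells of 1d and 455 (397 to 520) at 7d. The 1d interval lies above the other intervals, and the ratios were 1.71 (1.34 to 2.16) at 1d and 0.774 (0.648 to 0.924) at 7d, neither past 2-fold. Naive T-like cells were at 33.6 and 16.1 CPM in Ctrl and 7d (ratio 0.479, 0.278 to 0.81), which was called lower but was lost at a finer clustering (0.514), after TMM scaling (0.527), after thinning (0.788) and without the top cell (0.513). The remaining classes compared stood at 28.2 CPM or less in Ctrl, with ratios at 7d of 0.673 in CD8 T-like cells, 0.601 in NK-like cells and 1.32 in other T cells. These rest on few UMIs and moved with the settings. In CD8 T-like cells the ratio was 0.27 with the stricter filter and 1.36 with members kept in the clustering. In place of the 1.32 of other T cells, the T cells outside the Cd4 and Cd8 gates gave 0.326. In the same cells of the CD4 T-like class at 7d, the ratio was thus 0.774 for Tnfrsf4 and 0.417 for Tnfrsf18, and the intervals of these ratios do not overlap (they overlap within the Lrrc32-rich subcluster, at 0.68 and 0.39).

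Il2ra, the alpha chain that gives the interleukin-2 receptor its high affinity, was highest in gamma delta T-like cells (1067 CPM in Ctrl), then in ILC2-like cells (544, 401 to 721; 1704 in the 11 cells of the finer cluster) and the CD4 and regulatory T-like class (233, 194 to 278). CD8 T-like (31.1), NK-like (11.6), other T (11) and naive T-like cells (9.59) were low and overlapped one another in that order. At 7d the CD4 T-like class stood at 97.4 CPM, a ratio of 0.417 (0.291 to 0.59) that was called lower but was 0.501 with doublets kept. The finer subclusters differed, since the Cd4-rich one went from 320 to 66.9 CPM (ratio 0.209, 0.131 to 0.324) and the Lrrc32-rich one from 126 to 206 CPM (1.63, 0.886 to 2.9). ILC2-like cells stood at 279 CPM at 7d (ratio 0.514, 0.358 to 0.745) and at 2146 in the 21 cells of 1d. Single cells weighed heavily on these values, holding 20.8% of the Ctrl UMIs in the CD4 T-like class and 25%, 30.4% and 31.9% of those in ILC2-like cells. The share of the ILC2-like class that stayed in the finer ILC2-like cluster also differed between libraries. That cluster stood at 1704, 2773 and 718 CPM in Ctrl, 1d and 7d, on 11, 17 and 25 cells. Other T cells stood at 11 CPM in Ctrl and 10.5 at 7d, a ratio of 0.95 that was 0.3 over the T cells outside the Cd4 and Cd8 gates. NK-like cells went from 11.6 to 5.82 CPM with a ratio of 0.503 (0.238 to 1.06), which was 0.442 with the stricter filter, 0.41 with doublets kept and 0.29 with gates, each past 2-fold.

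Foxp3, the lineage factor of regulatory T cells, had 93.8%, 100% and 89.9% of its T cell UMIs in the CD4 and regulatory T-like class. Its level there was 312 CPM (266 to 363) in Ctrl, 320 (214 to 459) at 1d and 169 (134 to 211) at 7d. The 7d ratio of 0.543 (0.411 to 0.713) stayed inside 2-fold, but was 0.426 at a coarser clustering and 0.269 (0.096 to 0.611) within the Lrrc32-rich subcluster, where the Cd4-rich one was at 0.54. Cells of the class with a Foxp3 UMI made up 40.2% (33.3 to 47.4) in Ctrl, 53.3% at 1d and 20.9% (15.2 to 27.6) at 7d, and the Ctrl and 7d intervals do not overlap. After thinning the shares were 19.7% (14.4 to 25.9) in Ctrl, 17.2% (5.85 to 35.8) at 1d and 13.2% (8.57 to 19.2) at 7d. These thinned intervals overlap, so the separation of Ctrl and 7d was not kept. Of all T cells, 7.09%, 11% and 2.25% held a Foxp3 UMI, which was 87, 16 and 41 cells. The other classes described held at most 9 Foxp3 UMIs in any library. Ccdc22, which overlaps Foxp3 on the opposite strand, was also called lower at 7d in the CD4 and regulatory T-like class. Its ratio was 0.408 (0.168 to 0.904), on 25 UMIs in Ctrl and 9 at 7d. Flicr and Ppp1r3f held too few UMIs there to be called.

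Within the CD4 and regulatory T-like class, some receptors were found more often in cells with a Foxp3 UMI than in cells without one. Ctla4 was detected in 91.2% of Ctrl cells with a Foxp3 UMI and 60.5% of those without, and in 89.2% and 37.1% at 7d. Tnfrsf9 was detected in 61.2% and 37.8% in Ctrl and in 56.8% and 20.7% at 7d. Il2ra was in 41.2% and 12.6% in Ctrl, and in 29.7% and 14.3% at 7d, where the intervals overlap. By contrast, for Cd28 (65% and 73.1% in Ctrl, 62.2% and 65.7% at 7d) and Icos (51.2% and 54.6% in Ctrl, 56.8% and 42.9% at 7d) the intervals of the 2 kinds of cell overlapped. Median depth was similar, at 2427.5 and 2193 UMIs in Ctrl and 2233 and 2384 at 7d, and after thinning Ctla4 was in 69.2% and 49.1% in Ctrl and 65.2% and 23.8% at 7d. The thinned intervals overlapped for Ctla4 in Ctrl, and for Tnfrsf9 in Ctrl (48.7% and 31.4%) and at 7d (34.8% and 14.6%). Those of Il2ra overlapped in Ctrl (28.2% and 9.43%) and at 7d (13% and 7.28%). Of Ctla4, Tnfrsf9 and Il2ra, only Ctla4 at 7d kept thinned intervals that did not overlap. At 1d only 16 and 14 cells could be compared, and the intervals of all genes overlapped.

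**Figure D4:**
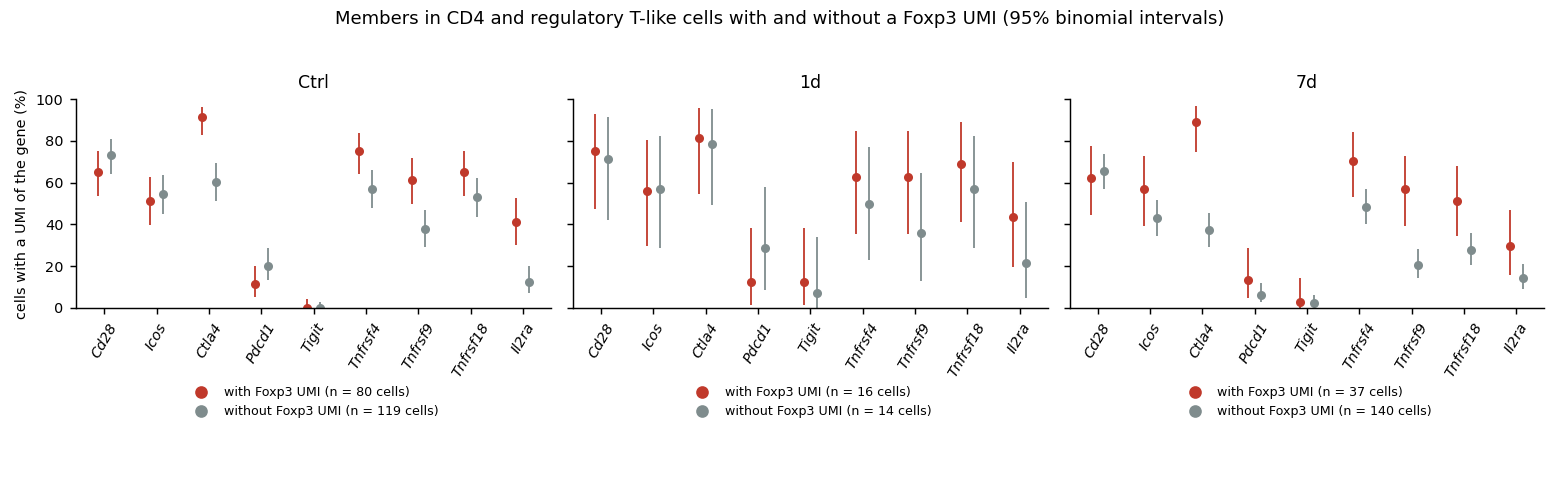
Share of CD4 and regulatory T-like cells with a UMI of each gene (percent, with 95% exact binomial intervals), split by whether the cell held a Foxp3 UMI, in Ctrl, 1d and 7d. Ctla4 and Tnfrsf9 are higher with Foxp3 in Ctrl and at 7d, while Cd28 shares overlap in all 3 libraries.

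Levels at 7d and in Ctrl were also compared within each of these 2 kinds of cell. Among cells with a Foxp3 UMI (80 in Ctrl, 37 at 7d), Tnfrsf18 (ratio 0.468) and Il2ra (0.35) were called lower, Ctla4 stood at 0.542 (0.419 to 0.693) and Tnfrsf9 at 0.596, and Tnfrsf4 (1.05), Cd28 (1.10) and Icos (0.856) were near Ctrl. Among cells without one (119 and 140), Ctla4 (0.371), Pdcd1 (0.385), Tnfrsf9 (0.459) and Tnfrsf18 (0.466) were called lower, with Il2ra at 0.982 and Tnfrsf4 at 0.761. A cell without a Foxp3 UMI may still be a regulatory T cell at this depth.

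The number of these genes found in a single cell was also smaller at 7d. In the CD4 and regulatory T-like class, 66.8%, 80% and 39% of cells held UMIs of at least 4 of the 10 genes in Ctrl, 1d and 7d. CD8 T-like cells with at least 4 went from 26.5% in Ctrl to 4.58% at 7d. NK-like cells with none of the 10 made up 22.7%, 9.52% and 49.4%, at median depths of 2735, 3820 and 2528 UMIs. Naive T-like cells with none were 17% in Ctrl and 29.5% at 7d.

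Some of the 10 genes followed one another across the 15 class and library points with at least 30 cells, which share libraries and clusters and so are not independent. The Pearson correlation of log2(CPM + 10) was 0.983 for Foxp3 with Tnfrsf4, 0.937 for Icos with Pdcd1, 0.797 for Tnfrsf9 with Tnfrsf18 and -0.02 for Cd28 with Tnfrsf9. Among 7878 other genes, Foxp3 and Tnfrsf4 were each most like Lrrc32 (0.981 and 0.980), which encodes GARP, the anchor of latent TGF-beta on regulatory T cells. Il2ra was most like Il1rl1 (0.964), the interleukin-33 receptor of ILC2 and regulatory T cells, with Areg, which encodes amphiregulin, also among its 3 most alike. Cd28 was most like Bcl11b (0.910), a T lineage transcription factor, and Icos most like Ly6a (0.943). Lrrc32, Il1rl1, Areg and Bcl11b are on the marker lists used to find and name the cell classes. Their likeness to genes concentrated in those classes therefore follows in part from the naming. Ctla4 was most like Ass1 (0.95), Tnfrsf9 like Cpd (0.930), Tnfrsf18 like Slc16a3 (0.921), Pdcd1 like Atp5md (0.919) and Tigit like Pygb (0.894).

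A list of 44 further receptors, signalling genes and transcription factors of the same pathways held more gene and class pairs that were higher than lower at 7d. The list was chosen with earlier results of these data known. A gene called in several classes counts once for each, as Nr4a1 and Nr4a3 do below. At 7d, 31 of 174 gene and class pairs tested were higher (17.8%) and 12 were lower (6.90%), against the 4.22% and 6.35% of all pairs given above. At 1d, 5 of 84 were higher and 2 lower, against 1.82% and 2.35%. Nr4a3 and Nr4a1, nuclear receptors induced rapidly by antigen receptor signalling and other stimuli, were higher at 7d in all 6 classes. Nr4a3 went from 314 to 1237 CPM in the CD4 T-like class (ratio 3.94), from 426 to 1263 in CD8 T-like cells (2.96), from 209 to 856 in naive T-like cells (4.09) and from 623 to 1807 in NK-like cells (2.90). Nr4a1 went from 194 to 466 CPM in the CD4 T-like class (2.40) and from 261 to 714 in NK-like cells (2.74), and was already at 483 in other T cells at 1d (2.54). Cd69, an early activation and tissue-retention receptor, was higher at 7d in CD8 T-like cells (240 to 600.2 CPM), naive T-like cells (190.2 to 655) and other T cells (352 to 769). Nr4a1 and Nr4a3 were thus higher at 7d in the same 6 classes in which Tnfrsf9 and Tnfrsf18 were lower. The naive T-like, NK-like and other T classes were mostly filled by different clusters in Ctrl and at 7d. No values within clusters are given here for Nr4a1, Nr4a3, Cd69, Ikzf2 or Batf.

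The share of lower pairs was close to that over all genes, and these were single genes. Lrrc32 was at 273 and 89 CPM in the CD4 T-like class (ratio 0.326), and lower both among cells with a Foxp3 UMI (0.463) and without (0.327). Nt5e, the ectoenzyme CD73 that makes adenosine, was lower in the CD4 T-like class (360.4 to 163) and in naive T-like cells (77.5 to 31.5). Ikzf2, which encodes Helios, was lower in NK-like cells (231 to 71.6, ratio 0.310) and ILC2-like cells (872 to 408, ratio 0.468). Batf, an AP-1 family factor of effector differentiation, was higher in the CD4 T-like class at 1d (118 to 276, ratio 2.34) and lower at 7d in NK-like cells (0.432) and other T cells (0.409). At 1d the CD4 T-like class, of only 30 cells, was also higher in Irf4 (33.6 to 110.2), which acts with Batf. It was higher too in Izumo1r (161 to 342), a folate receptor family gene, and lower in Il7r (360.4 to 99.2) and Ctla2a (594 to 187). The 1d calls over all classes compared, 5 higher and 2 lower, became 2 and 3 without the cell with the most UMIs of the gene.

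**Figure D5:**
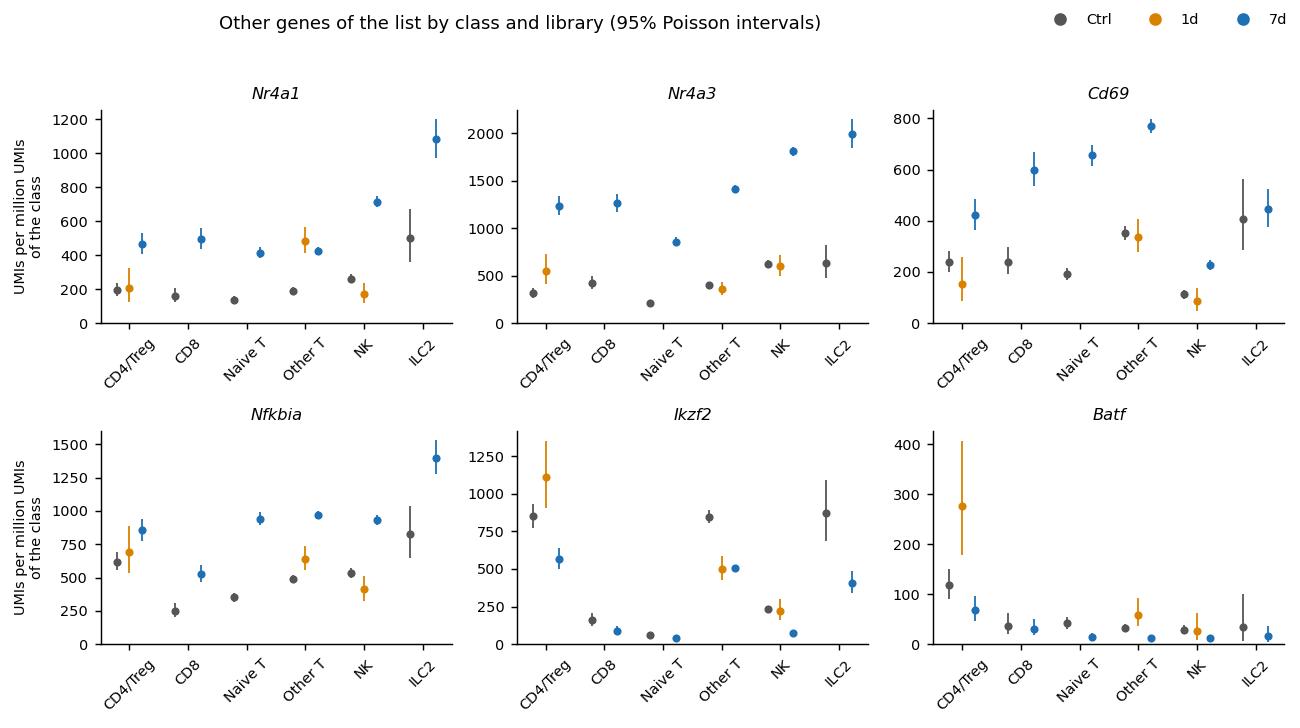
Levels (CPM, linear axis, with 95% Poisson intervals) of Nr4a1, Nr4a3, Cd69, Nfkbia, Ikzf2 and Batf by class in Ctrl, 1d and 7d. Nr4a3 is higher at 7d than in Ctrl in each class compared, while Ikzf2 is lower in NK-like cells (231 and 71.6 CPM).

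The ligands of these receptors were measured in the cells that present antigen, for 10 ligand genes. In conventional dendritic-like cells 5 of 8 were lower at 7d (9.65% of all genes) and 2 of 8 at 1d (2.46%), with 0 higher at either time (6.99% and 3.8% of all genes). Cd80 went from 141 to 41.5 CPM (ratio 0.296) and Cd86 from 351 to 121 (0.344), the ligands of CD28 and CTLA-4. Cd274, the PD-1 ligand PD-L1, went from 161 to 32.1 (0.199), and Pdcd1lg2 from 28.5 to 5.67 (0.198). Tnfsf4, the OX40 ligand, went from 24.2 to 2.83 CPM (0.117). In macrophage and monocyte-like cells 1 of 7 was lower at 7d (Cd274, 115 to 27.6 CPM; 8.38% of all genes) and 0 of 7 at 1d (3.45%), and 0 of 7 were higher at either time (7.48% and 6.07%). B cells differed most at 1d, where 5 of 6 ligands were lower (5.79% of all genes) and 1 was higher (13.6%). Among the lower ones were Cd86 (297 to 92.1 CPM) and Icosl, the ICOS ligand (53.1 to 12.1 CPM). The higher one was Tnfsf9, the 4-1BB ligand (3.18 to 6.81 CPM, on 12 and 23 UMIs). Its ratio of 2.14 (1.02 to 4.72) had an interval that only just left out 1. At 7d 1 of 5 was lower in B cells (Cd86, ratio 0.477; 6.78% of all genes) and 0 were higher (3.56%).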

How the data were processed

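Jaw cells of 3 pooled libraries were captured with a 10x 3' kit, per the labels' protocols. The deposited matrices hold UMI counts per gene and cell barcode made by the authors with Cell Ranger (6.1.1 per the file headers), against mm10 with CASAVA 1.8 and Seurat also named, per the submitters' processing notes. Whether empty droplets or free RNA were corrected further is not given in the sources used here.

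Cells with at least 500 UMIs and 250 genes and at most 15% mitochondrial UMIs were kept, leaving 8623, 4879 and 6094 of 11315, 6043 and 7744 barcodes after doublet scoring (scanpy 1.11.5; 2.89%, 4.84% and 6.20% removed, the last 2 by an assumed rate). T and NK cells were re-clustered (2000 variable genes without the 10 members, 20 components, 15 neighbours, Leiden resolution 1 with igraph 0.11.9). Classes were named from marker lists. The naming thresholds (at least 3 markers at log2 1 or more, in 10% of cells, mean 0.6) were set after the clusters were seen, and differences between classes may come from these rebuilt names. UMIs were summed per class and library, with exact intervals from scipy 1.17.1. TMM factors came from edgeR 4.0.16 and figures from matplotlib 3.10.9. With 1 library a group there is no test of a condition. Interval steps were tested on simulated data.

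The members and gene lists were chosen with earlier results of these data known. All 10 members are named, with, from 44 pathway genes, up to 3 per class, comparison and direction furthest from 1 by the nearer end of the interval among those called; the text gives some of these. For likeness, the 3 most correlated genes (at least 100 UMIs, no ribosomal, mitochondrial, receptor segment or sex-linked genes) were found, and the first is given. The promoter motifs, the values within clusters and subclusters and those without the top cell were chosen after the data were seen. Intervals cover counting error only. Alternatives were the cell filter, doublets, clustering resolution, members in the clustering, per-cell gates, thinning to 1000 UMIs, TMM scaling, 5% free RNA subtracted, UMI minimums of 5 and 50 and a fold of 1.5. Of the barcodes, none were mapped to single mice.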

Additional observations from a re-analysis of the deposited data

Results flagged for a closer look

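Outside T and NK cells, Il2ra was measured in the B cell class at 1d far above its Ctrl level, in cells in which the report compared the ligands and none of the 10 genes. The B cells held 45 Il2ra UMIs in Ctrl, 407 at 1d and 11 at 7d, or 11.9, 121 and 11.3 CPM. The 1d to Ctrl ratio was 10.1 (7.41 to 14.1). A UMI was present in 1.74%, 19.5% and 1.03% of 1785, 1269 and 486 B cells, at median depths of 1913, 2430 and 1838.5 UMIs, so the 1d library was high and the others were low. Il2ra was present in 34.1% of the 41 B cells at 1d with at least 2 of 4 B precursor genes (Vpreb1, Igll1, Rag1 and Dntt) and in 19.1% of the 1228 others. Neutrophils of the same libraries held an Il2ra UMI in 0.134%, 0.161% and 0% of cells.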

How the results depend on the processing

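No paired analysis was possible because each group is 1 library, and no replicate could be left out. No member was called higher at 7d under any of the 13 alternatives, and between 17 (thinned cells) and 30 (fold of 1.5) gene and class pairs were called lower, against 24. Of 25 called member ratios, 12 kept their call in every alternative that gave them a value, not counting single clusters.

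At 1d the members called higher, 0 as reported, were 3 with the stricter filter, 2 with doublets kept, 1 at Leiden resolution 2, 1 with per-cell gates and 2 at a fold of 1.5. Those called lower, 1 as reported, were 2 with doublets kept, 2 with members kept in the clustering, 3 with per-cell gates, 3 without the top cell and 3 at a fold of 1.5. Pathway pairs higher at 1d, 5 as reported, were 3 with the stricter filter, 3 at resolution 0.5, 9 at resolution 2, 3 with members kept in, 2 without the top cell, 9 at a minimum of 5 UMIs, 3 at 50 UMIs and 16 at a fold of 1.5. Pathway pairs lower at 1d, 2 as reported, were 1 with doublets kept, 4 at resolution 2, 1 with gates, 1 after thinning, 3 without the top cell and 5 at a fold of 1.5. At 7d a fold of 1.5 gave 49 pathway pairs higher and 26 lower, against 31 and 12. A lower fold calls more pairs by construction, and the cause of the other changes was not tested.

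The called ratios whose direction turned were of Tnfrsf9 and Il2ra. In other T cells the 1d ratio was 1.02 with gates and 5.22 within cluster 3, and the 7d ratio was 7.36 within cluster 3. In NK-like cells the 7d ratio of Tnfrsf9 was 1.14 within cluster 10, and in the CD4 T-like class that of Il2ra was 1.63 within the Lrrc32-rich subcluster of the finer clustering. Thinning leaves fewer UMIs, and with it the 7d calls of Pdcd1 and Tnfrsf9 in CD8 T-like cells (0.188 and 0.348), Tnfrsf9 in naive T-like cells (0.215), Ctla4 and Pdcd1 in other T cells (0.409 and 0.245), Tigit in NK-like cells (0.499) and Tnfrsf18 in ILC2-like cells (0.217) were lost. At a fold of 2, the higher calls gained at 1d were Ctla4 in other T cells (2.60 with the stricter filter, 2.04 with doublets kept), Tnfrsf4 there (4.06 and 4.59 with the same changes, on 16 and 15 UMIs), Il2ra there (2.79 with the stricter filter, 2.56 at resolution 2) and Tnfrsf18 in NK-like cells (2.02 with gates). TMM scaling moved the log2 ratios by 0.09 to 0.20 at 7d and by -0.14 in the CD4 and regulatory T-like class at 1d. Per-cell gates gave no value for naive T-like, ILC2-like or gamma delta T-like cells. The 30 to 72 cells per class at 1d limit what could be called there.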

Other observations

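Tnfrsf9 was also lower outside the lymphoid classes. Mast cell or basophil-like cells, which can carry 4-1BB, stood at 201 CPM in Ctrl, 22.6 at 1d and 6.19 at 7d, with ratios of 0.113 and 0.0309. Megakaryocyte-like cells stood at 38.3, 7.33 and 2.57 CPM, with ratios of 0.192 and 0.0671. In both classes the Ctrl library was high and the later libraries were low, on 51 and 52 Ctrl UMIs.

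Il2ra in conventional dendritic-like cells was at 71.4 CPM in Ctrl and 2.83 at 7d, on 65 and 3 UMIs, a ratio of 0.0397. Of the low counts in cells that should lack the receptors, Cd28 in B cells was at 16.7, 2.37 and 0 CPM, and in mesenchymal-like cells at 14.6, 2.07 and 2.41 CPM in Ctrl, 1d and 7d. In mesenchymal-like cells Tnfrsf9 was at 8.03, 1.65 and 1.2 CPM, Ctla4 at 7.45, 0.413 and 0, and Icos at 8.89, 0 and 0. These low counts were thus also highest in Ctrl. Tnfrsf18 in neutrophils was not, at 4.51, 2.02 and 6.61 CPM. The part of such free RNA in the differences above was not tested.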
